A study of Homo sapiens with 23 samples.

Results

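The death receptor genes of TRAIL and Fas signalling were taken as a group of 10 genes, the receptors *TNFRSF10A*, *TNFRSF10B*, *FAS* and *TNFRSF1A*, the decoy receptors *TNFRSF10C* and *TNFRSF10D*, the ligand *TNFSF10*, and the genes of the adaptor, caspase and inhibitor that act inside the cell, *FADD*, *CASP8* and *CFLAR*. They are given by name, with no threshold on their values, though earlier results of these data were known when they were chosen. All 10 were found among the 61806 genes of the first count table and among the 42901 genes of the deep count table. RNA-sequencing was performed on A549 cells, a lung carcinoma epithelial cell line, after depletion of THUMPD3, a methyltransferase that makes m2G in tRNA. In the first 17 libraries, siD3 #3 (an siRNA, 3 libraries) was set against siControl (2 libraries analysed here), shD3 #1 (3 libraries) against sh1Control (3 libraries), and shD3 #4 (3 libraries) against sh4Control (3 libraries). Another 6 libraries, sequenced more deeply, hold shD3 #1 and sh1Control, with 3 libraries each. The siRNA was transfected and the cells were harvested on day 5. The shRNAs were expressed from a doxycycline-inducible lentiviral vector in puromycin-selected cells, which were harvested on day 6, so delivery and harvest day cannot be told apart. The labels give the controls as WT cells and the methods call them untreated, and the relation of the deep libraries to the first shD3 #1 libraries is not stated in the sources used here.

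Death receptors are members of the tumour necrosis factor receptor family that carry a death domain on the inner side of the membrane. When TRAIL or Fas ligand binds, the receptors gather the adaptor FADD, which in turn gathers procaspase-8, and the caspase cleaves itself and starts apoptosis, while cFLIP, the product of *CFLAR*, competes with procaspase-8 on this complex. The decoy receptors bind TRAIL but lack a working death domain.

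Library totals ran from 9854294 to 22101059 counts in the first libraries and from 27285889 to 59974740 in the deep libraries, with the lowest total in shD3 #1. No knockdown library overlapped its controls in *THUMPD3*, which was at 29.6 to 31.7 cpm (counts scaled to library size by TMM) in shD3 #1 against 58.2 to 61.3, at 19.1 to 20.2 in shD3 #4 against 59 to 66.6, and at 10.7 to 12.8 in siD3 #3 against 67.4 to 70.2. The fitted log2 fold changes of *THUMPD3* were -0.97, -1.67 and -2.54 for shD3 #1, shD3 #4 and siD3 #3, and -1.01 for deep shD3 #1. The sum of 6 epithelial markers was 3840 to 7670 cpm in every library, that of 4 immune markers at most 0.819 cpm and that of 3 endothelial markers at most 1.58 cpm. The sum of 4 fibroblast markers was 2.51 to 8.4 cpm in all groups except deep shD3 #1, where it was 25.7 to 28 cpm. Nearly all of this was *COL1A1*, at 25.4, 26 and 27.8 cpm against 7.66, 8.13 and 8.28 cpm in deep sh1Control. In deep shD3 #1 *COL1A2* was at most 0.11 cpm, *PDGFRB* at most 0.228 cpm and *DCN* at 0. The part of the *COL1A1* rise in the deep results was not tested. Replicate 3 of siD3 #3 stood apart from the other libraries of its group, with a chi-square per degree of freedom of 30.4 and 34.6 against replicates 1 and 2, which differed from each other by 3.76, so the siD3 #3 values of the 10 genes are also given without it. In bulk RNA, fewer cells that express a gene and less RNA per cell cannot be told apart.

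A gene was called when its Benjamini-Hochberg adjusted p over all tested genes in edgeR's quasi-likelihood test was below 0.05 and its change was at least 1.5-fold in either direction. *TNFRSF10C* is counted apart, because in the first libraries it passed the filter on low counts only through knockdown groups in which it was high, and it was not tested in shD3 #4. Of the other 9 genes, 4 were called higher in shD3 #1, against 14.5% of all tested genes called higher, and 0 were called lower, against 14.6%. In siD3 #3, 5 of these 9 genes were called higher, against 12.5% of all tested genes, and 0 lower, against 9.42%. In shD3 #4, only *TNFSF10* was called higher, against 8% of all tested genes, and 0 were called lower, against 4.49%. In deep shD3 #1, 3 of the 9 genes were called higher, against 15% of all tested genes, and 0 lower, against 14.1%. The median log2 fold change of these 9 genes was 0.31 in shD3 #1, 0.04 in shD3 #4, 0.61 in siD3 #3 and 0.44 in deep shD3 #1. For all tested genes it was -0.01, 0.01, 0.03 and -0.01 in the same order.

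**Figure D1:**
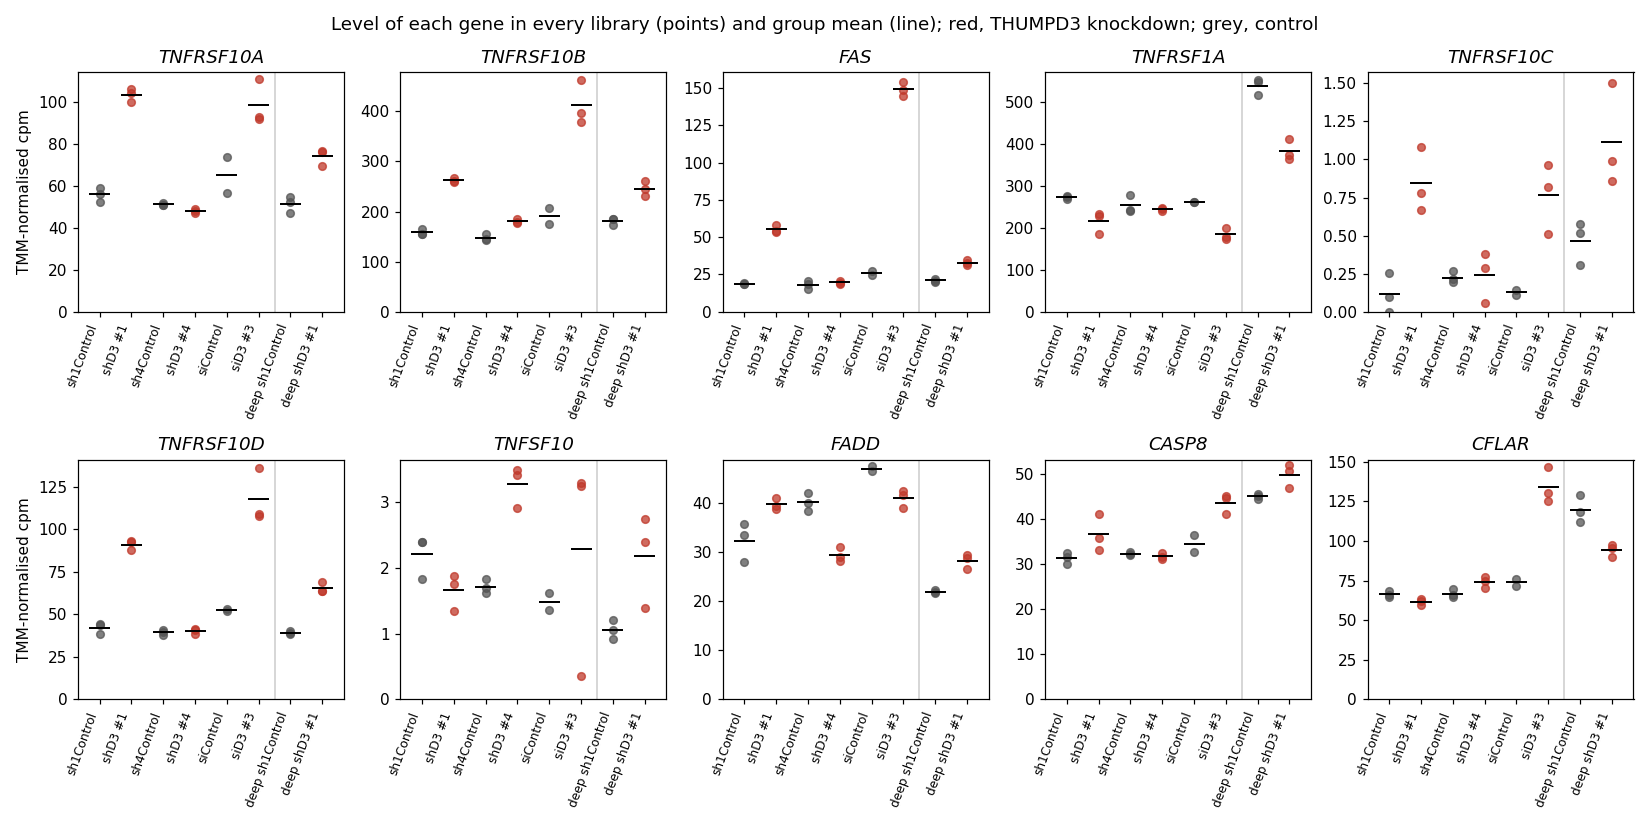
TMM-normalised cpm of the 10 genes (vertical axes, linear from 0) in every library, grouped on the horizontal axes by control and knockdown; points are libraries, lines are group means, and the vertical line parts the first libraries from the deep ones. *FAS* sits at 145 to 154 cpm in siD3 #3 and at 53.5 to 58.1 cpm in shD3 #1, above all control libraries, and at 18.8 to 20.6 cpm in shD3 #4, within the range of its controls.

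The levels of the 10 genes in the 8 control libraries of the first table spanned about 3 orders of magnitude when set per kilobase of canonical transcript. *TNFRSF1A* was the most abundant at 121 ± 6.61 cpm per kb (mean ± SD, n = 8) and was followed by *TNFRSF10B* at 40.7 ± 5.28 cpm per kb. *FADD* at 22.8 ± 3.86 and *TNFRSF10A* at 21 ± 2.84 cpm per kb overlapped, as did *TNFRSF10D* at 12.4 ± 1.68 and *CASP8* at 12.2 ± 0.688 cpm per kb. *FAS* at 5.49 ± 1.04 and *CFLAR* at 4.68 ± 0.275 cpm per kb also overlapped. The canonical *CFLAR* transcript is the longest of the group at 14612 bases, and in cpm *CFLAR* stood above *FAS* and *CASP8* in every control library. *TNFSF10* at 0.98 ± 0.198 cpm per kb and *TNFRSF10C* at 0.115 ± 0.0641 cpm per kb were the lowest, so the ligand and the first decoy receptor rest on few reads. Counts per gene do not separate isoforms, such as the long and short forms of cFLIP or soluble Fas.

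*FAS* encodes Fas (CD95), the receptor of Fas ligand, and lies at GRCh38 chr10:88953813-89029605 on the plus strand, with 9 exons in its canonical transcript (GENCODE 44). Of the genes of the group with more than 10 cpm in every library, it showed the highest fold change in shD3 #1 and siD3 #3. That was not so in deep shD3 #1, where *TNFRSF10D* was higher, or in shD3 #4, where *TNFRSF10B* was. In shD3 #1 its level was 54, 53.5 and 58.1 cpm against 18.6, 18.4 and 19.4 cpm in sh1Control. In siD3 #3 it was 154, 149 and 145 cpm against 27.3 and 24.5 cpm in siControl. In neither comparison did a knockdown library come near a control library. The log2 fold change was 1.57 (SE 0.0701, adjusted p = 4.95e-11, edgeR) in shD3 #1, a 2.97-fold rise, and 2.53 (SE 0.0977, adjusted p = 6.71e-06) in siD3 #3, a 5.77-fold rise, or 2.54 without replicate 3. In shD3 #4 *FAS* was at 19.5, 20.6 and 18.8 cpm against 20.6, 15.3 and 18.3 cpm, and these groups overlapped, with a log2 fold change of 0.14 (SE 0.0922, adjusted p = 0.232). The deep shD3 #1 libraries had 32.7, 34.4 and 31.6 cpm against 22.2, 19.9 and 20.8 cpm. The deep groups did not overlap, and the log2 fold change of 0.65 (SE 0.0601, adjusted p = 2.84e-07) was called, but it was not past 1.5-fold in a test against that threshold (glmTreat, adjusted p = 0.227).

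A promoter window of *FAS* is shown because this gene had the highest fold change of the well-detected members. The window, from RefSeq (GRCh38.p14, chr10:88990548-88990847, plus strand, 5′ to 3′), is the most upstream of the 3 that RefSeq gives for this gene and holds the start of the canonical transcript, while the gene span begins farther upstream. Capitals mark its match to the AP-1 motif TGANTCA, which 7.71% of 35116 RefSeq promoter windows hold on either strand. Windows of *FADD*, *CASP8* and *CFLAR* hold this motif too, and *FADD* and *CASP8* were not called in any comparison.
FAS: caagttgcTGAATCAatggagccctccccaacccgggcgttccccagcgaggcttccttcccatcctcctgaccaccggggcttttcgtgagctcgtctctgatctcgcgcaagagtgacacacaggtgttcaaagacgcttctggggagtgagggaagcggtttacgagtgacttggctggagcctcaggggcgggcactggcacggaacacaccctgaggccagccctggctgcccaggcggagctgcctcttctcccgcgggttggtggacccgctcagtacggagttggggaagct
A match is a description of these letters, and binding was not measured here.

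*ACTA2*, a smooth muscle actin gene named here after its values were seen, overlaps the *FAS* locus on the opposite strand but shares 0 bases with the canonical *FAS* exons. Its level was 11 ± 1.19 cpm (mean ± SD, n = 3) in shD3 #1 against 3.29 ± 0.29 cpm, and 29.2 ± 1.81 cpm in siD3 #3 against 5.3 ± 1.34 cpm (n = 2). The log2 fold changes of *ACTA2* were 1.74, 0.23, 2.48 and 0.82 in shD3 #1, shD3 #4, siD3 #3 and deep shD3 #1, beside 1.57, 0.14, 2.53 and 0.65 for *FAS*. The libraries were directional, but which strand was counted is not stated in the sources used here, so reads of both genes may not be separated. *FAS-AS1* was matched in the deep table only and was not tested there, with at most 0.017 cpm in any library.

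*TNFRSF1A* encodes TNFR1, the main receptor of tumour necrosis factor, and lies at chr12:6328757-6342114 on the minus strand. It was the only receptor of the group with a negative log2 fold change in every comparison. Its level was 227, 232 and 186 cpm in shD3 #1 against 276, 273 and 268 cpm, and 179, 173 and 200 cpm in siD3 #3 against 260 and 262 cpm. Deep shD3 #1 had 372, 411 and 364 cpm against 552, 546 and 516 cpm. In all 3 of these comparisons every knockdown library lay below every control library, and the log2 fold changes were -0.32 (SE 0.0739, adjusted p = 0.00173), -0.50 (SE 0.0964, adjusted p = 0.00642) and -0.49 (SE 0.0513, adjusted p = 9.9e-07) by edgeR, which did not reach the fold threshold. Without siD3 #3 replicate 3 the siRNA value was -0.58 (adjusted p = 0.000331), just under that threshold. In shD3 #4 the level was 248, 244 and 239 cpm against 239, 243 and 277 cpm, and the groups overlapped, with a log2 fold change of -0.04 (SE 0.0669, adjusted p = 0.688). The RefSeq promoter window of *TNFRSF1A* (GRCh38.p14, chr12:6342027-6342326, minus strand) is shown as that of the receptor that went the other way from *FAS*, with its CCAAT match, read on the opposite strand, in capitals; 34.6% of all promoter windows hold this motif.
TNFRSF1A: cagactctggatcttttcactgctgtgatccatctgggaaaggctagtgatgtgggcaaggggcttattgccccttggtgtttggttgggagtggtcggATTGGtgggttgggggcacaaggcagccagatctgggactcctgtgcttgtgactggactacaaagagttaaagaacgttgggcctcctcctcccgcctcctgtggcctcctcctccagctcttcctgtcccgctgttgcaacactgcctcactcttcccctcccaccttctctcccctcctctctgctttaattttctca
The ratio of *FAS* to *TNFRSF1A* cpm was 0.0674 to 0.0723 in sh1Control and 0.23 to 0.313 in shD3 #1, and 0.0935 to 0.105 in siControl and 0.725 to 0.86 in siD3 #3. It was 0.0785 to 0.0842 in shD3 #4, within the 0.0628 to 0.0861 of sh4Control.

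**Figure D2:**
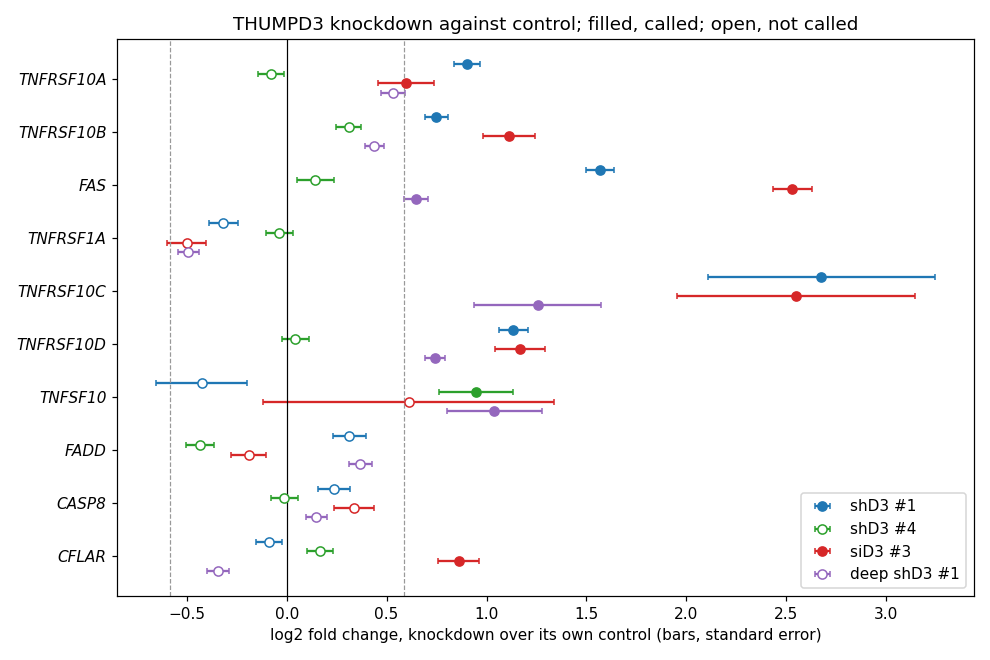
Log2 fold change of each knockdown over its own control (horizontal axis) for the 10 genes (rows), with standard errors as bars; colours are the 4 comparisons, filled points are called genes and dashed lines are the 1.5-fold threshold. *FAS*, *TNFRSF10D* and *TNFRSF10C* are filled in shD3 #1, siD3 #3 and deep shD3 #1, whereas among the shD3 #4 points *TNFSF10* at 0.95, *FADD* at -0.43 and *TNFRSF10B* at 0.31 lie farthest from 0.

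The TRAIL receptor genes lie together on chromosome 8. *TNFRSF10A* (chr8:23190452-23225102, minus strand) encodes DR4 and *TNFRSF10B* (chr8:23020133-23069031, minus strand) encodes DR5, both of which signal death on binding TRAIL. *TNFRSF10A* was at 104, 99.8 and 106 cpm in shD3 #1 against 59, 56.2 and 52.4 cpm, with no overlap. Its rise in shD3 #1 was 1.87-fold, a log2 fold change of 0.90 (SE 0.0659, adjusted p = 1.22e-08, edgeR). In shD3 #4 it was at 48, 47.2 and 49 cpm against 51, 50.9 and 51.9 cpm, and all 3 knockdown libraries lay below the controls by a small margin, with a log2 fold change of -0.08 (SE 0.0634, adjusted p = 0.347). In siD3 #3 it was at 91.8, 92.5 and 111 cpm against 73.9 and 56.3 cpm. The siRNA groups did not overlap, but the 2 controls differed widely, and the log2 fold change of 0.60 (SE 0.142, adjusted p = 0.015) was called by a narrow margin. It was 0.49 (adjusted p = 0.00735) without siD3 #3 replicate 3 and 0.40 (adjusted p = 0.11) without siControl replicate 2, and neither was called. At greater depth *TNFRSF10A* was at 69.5, 75.9 and 76.4 cpm in shD3 #1 against 52.2, 54.5 and 46.9 cpm, with a log2 fold change of 0.53 (SE 0.0603, adjusted p = 2.5e-06) that did not reach the fold threshold.

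*TNFRSF10B* was the receptor with values above its controls in all 4 comparisons. Its level was 268, 262 and 259 cpm in shD3 #1 against 155, 166 and 156 cpm, and 379, 397 and 463 cpm in siD3 #3 against 208 and 175 cpm. These were rises of 1.68-fold (log2 0.75, SE 0.0577, adjusted p = 2.19e-08, edgeR) and 2.16-fold (log2 1.11, SE 0.13, adjusted p = 0.00066), the second being 1.01 on the log2 scale without replicate 3. Its shD3 #4 libraries had 186, 178 and 179 cpm against 144, 145 and 155 cpm. The shD3 #4 groups did not overlap either, but the log2 fold change of 0.31 (SE 0.0624, adjusted p = 0.000261) was under the fold threshold. In deep shD3 #1 the level was 246, 261 and 231 cpm against 185, 185 and 174 cpm, a log2 fold change of 0.44 (SE 0.0488, adjusted p = 1.95e-06), also under the threshold.

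The decoy receptor gene *TNFRSF10D* (DcR2, chr8:23135588-23164027, minus strand) encodes a TRAIL receptor with a truncated death domain. It was at 92.9, 87.7 and 92.4 cpm in shD3 #1 against 43.6, 44.2 and 38.2 cpm, and at 108, 109 and 136 cpm in siD3 #3 against 52 and 53.1 cpm. In both, the lowest knockdown library lay far above the highest control library, and the rises were 2.19-fold (log2 1.13, SE 0.0717, adjusted p = 2.31e-09, edgeR) and 2.24-fold (log2 1.17, SE 0.124, adjusted p = 0.000414), the second being 1.04 on the log2 scale without replicate 3. In deep shD3 #1 it was at 63.9, 69 and 63.9 cpm against 38.5, 39.1 and 40.1 cpm, a 1.67-fold rise (log2 0.74, SE 0.0508, adjusted p = 1.12e-08). With shD3 #4 it stood at 38.3, 41.4 and 41.1 cpm against 37.8, 39.8 and 40.9 cpm, which overlapped (log2 0.04, SE 0.068, adjusted p = 0.658).

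*TNFRSF10C* (DcR1, chr8:23102921-23117445, plus strand) encodes a decoy receptor held in the membrane by a lipid anchor, and it was barely detected. It had 12, 13 and 11 counts in shD3 #1 against 5, 0 and 2 in sh1Control, and 20, 14 and 10 counts in siD3 #3 against 2 and 2 in siControl. In deep shD3 #1 it had 46, 27 and 31 counts against 18, 26 and 32 in the deeper control libraries. Summed over libraries and set against depth, the ratio was 6.57 (95% exact interval 2.88 to 17.5, counting error only) in shD3 #1, 6.12 (2.23 to 23.5) in siD3 #3 and 2.39 (1.76 to 3.26) in deep shD3 #1. In shD3 #4 it had 8, 5 and 1 counts against 4, 4 and 5, a ratio of 1.12 (0.487 to 2.58), so no difference was detectable at this depth. The fitted log2 fold changes were 2.67 (SE 0.567) in shD3 #1 and 2.55 (SE 0.594) in siD3 #3, and no p is read from them, since only the knockdown groups brought the gene past the filter on low counts. With no filter beyond 1 count they were 2.67 (adjusted p = 9.65e-06, edgeR) and 2.52 (adjusted p = 0.0017). With 1 library left out the shD3 #1 value ran from 2.17 (without sh1Control replicate 2) to 3.78 (without sh1Control replicate 1). The siD3 #3 value was 2.77 without siD3 #3 replicate 3, and under the filter its adjusted p was 0.114 without siControl replicate 1 and 0.0803 without siControl replicate 2. In the deep libraries, where controls also passed the filter, the rise was called (log2 1.26, SE 0.316, adjusted p = 0.00306), although the raw counts overlapped. The 4 TRAIL receptor genes are similar in sequence, and another annotated protein-coding gene overlaps *TNFRSF10C* on the same strand over 12616 bases, so its counts are uncertain.

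The ratio of the decoy *TNFRSF10D* to the death receptor *TNFRSF10B* was 0.334 to 0.357 in shD3 #1 against 0.246 to 0.281 in sh1Control, and 0.259 to 0.277 in deep shD3 #1 against 0.208 to 0.23. In shD3 #4 it lay the other way, at 0.206 to 0.233 against 0.263 to 0.275. In siD3 #3 it was 0.275 to 0.294, within the 0.25 to 0.303 of siControl, where both genes rose. *TNFRSF10A-DT*, a lncRNA that starts on the opposite strand beside *TNFRSF10A*, was at 4.83 ± 0.211 cpm (mean ± SD, n = 3) in shD3 #1 against 3.98 ± 0.716 cpm, and it was not called in any of the 4 comparisons, with log2 fold changes of 0.29, -0.30, -0.10 and -0.01. Another entry of this name in the first libraries was tested in siD3 #3 only and was not called (log2 0.56, adjusted p = 0.422, edgeR).

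**Figure D3:**
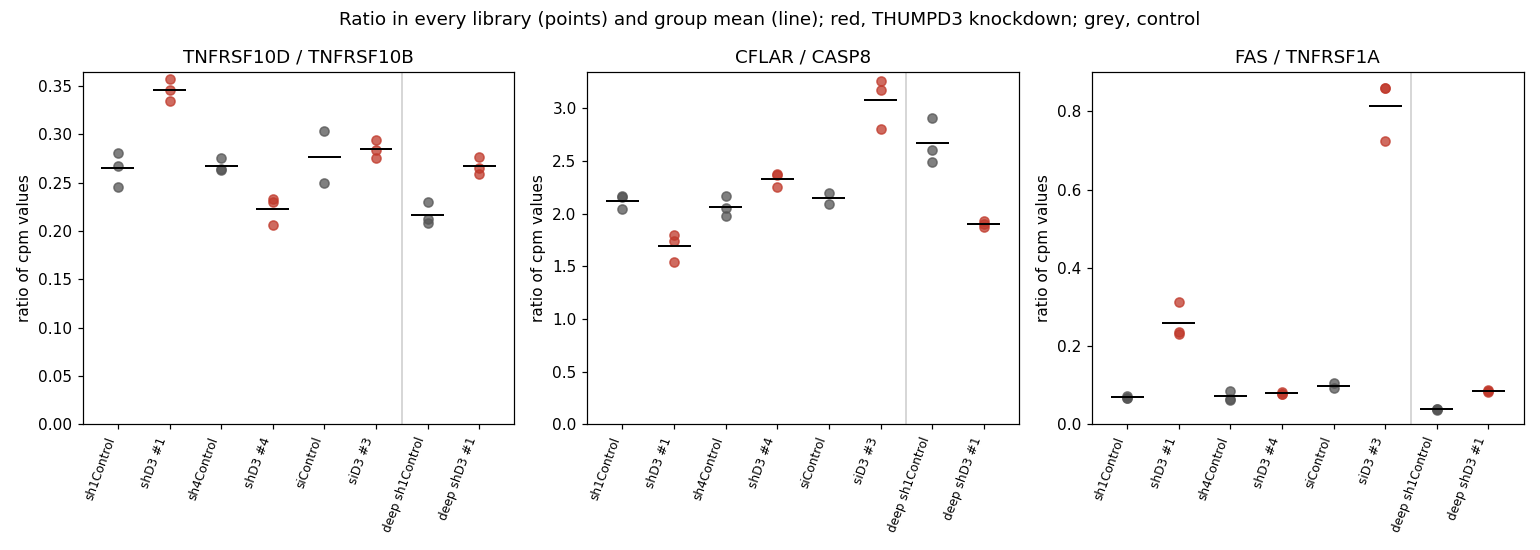
Ratios of cpm values (vertical axes, linear from 0) of *TNFRSF10D* to *TNFRSF10B*, *CFLAR* to *CASP8* and *FAS* to *TNFRSF1A* in every library (points) with group means (lines). The mean *CFLAR* to *CASP8* ratio is 1.69 in shD3 #1, 2.33 in shD3 #4 and 3.08 in siD3 #3, beside control means of 2.12, 2.07 and 2.14.

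*TNFSF10* encodes TRAIL, the ligand of the TNFRSF10 receptors, and lies on chromosome 3 (chr3:172505508-172523475, minus strand). It was the only gene of the group called in shD3 #4, where it was at 3.4, 3.48 and 2.91 cpm against 1.61, 1.82 and 1.69 cpm. This was a 1.93-fold rise without overlap (log2 0.95, SE 0.185, adjusted p = 0.000185, edgeR), which was not called in 1 fit of all 17 first libraries (adjusted p = 0.068) or in a test against the fold threshold (glmTreat, adjusted p = 0.155). In shD3 #1 it was at 1.75, 1.34 and 1.87 cpm against 2.39, 2.38 and 1.83 cpm, and the groups overlapped (log2 -0.43, SE 0.227, adjusted p = 0.122). The deep libraries of the same shRNA gave the other sign, with 2.74, 1.39 and 2.38 cpm against 1.21, 0.912 and 1.06 cpm. These did not overlap, and the 2.05-fold rise (log2 1.04, SE 0.237, adjusted p = 0.00151) was called, but was not past the threshold by glmTreat (adjusted p = 0.0574). The difference between the first and deep libraries was not tested, since they stand in separate tables. In siD3 #3, 1 library decided the result: it was at 3.23, 3.28 and 0.356 cpm, or 67, 56 and 7 counts, against 1.62 and 1.35 cpm. With all 3 libraries the log2 fold change was 0.61 (SE 0.727, adjusted p = 0.558), and without replicate 3 it was 1.11 (adjusted p = 0.00599) and called.

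*FADD* (chr11:70203296-70207390, plus strand), the adaptor between receptor and caspase, was not called in any comparison, and its sign differed between them. It was at 40.9, 38.7 and 39.4 cpm in shD3 #1 against 33.4, 27.9 and 35.6 cpm, and at 26.5, 28.8 and 29.3 cpm in deep shD3 #1 against 21.8, 22.2 and 21.6 cpm. Both pairs of groups were apart, with log2 fold changes of 0.31 (SE 0.0833, adjusted p = 0.00447, edgeR) and 0.37 (SE 0.0574, adjusted p = 5.62e-05). In shD3 #4 *FADD* was at 28.1, 29 and 31 cpm against 42, 40 and 38.3 cpm, again apart but with the knockdown below the control (log2 -0.43, SE 0.0705, adjusted p = 1.92e-05). In siD3 #3 it was at 41.6, 39 and 42.5 cpm against 47.5 and 46.4 cpm and lay below both controls, without passing the test (log2 -0.19, SE 0.0885, adjusted p = 0.135; -0.23 without replicate 3).

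*CASP8* (chr2:201233443-201361836, plus strand), which encodes the initiator caspase of this route, stayed under the fold threshold throughout. It was at 41.1, 44.6 and 45 cpm in siD3 #3 against 36.4 and 32.6 cpm, with a log2 fold change of 0.34 (SE 0.0988, adjusted p = 0.0334, edgeR), or 0.30 (adjusted p = 0.0288) without replicate 3. In shD3 #1 it was at 33.1, 35.7 and 41.1 cpm against 32.4, 29.9 and 31.6 cpm (log2 0.24, SE 0.081, adjusted p = 0.0211). The knockdown libraries lay above the controls in both comparisons. Levels in shD3 #4 were 31.1, 32.4 and 31.6 cpm against 32, 32.2 and 32.6 cpm, which overlapped (log2 -0.01, SE 0.0679, adjusted p = 0.91). Deep shD3 #1 libraries held 46.8, 50.5 and 52 cpm against 45.5, 44.4 and 45 cpm (log2 0.15, SE 0.0526, adjusted p = 0.0252). *FLACC1*, which overlaps *CASP8* on the opposite strand and was named after the annotation was seen, was at most 1.08 cpm in any library and shares 0 bases with its canonical exons.

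*CFLAR* (chr2:201116154-201176687, plus strand), the gene of the caspase-8 inhibitor cFLIP, was called in siD3 #3 only. It was at 130, 125 and 147 cpm there against 76.2 and 71.6 cpm, with no overlap, a 1.82-fold rise (log2 0.86, SE 0.102, adjusted p = 0.000711, edgeR) that was 0.78 on the log2 scale without replicate 3. In shD3 #1 it was at 59.5, 62 and 63.4 cpm against 66, 64.7 and 68.5 cpm (log2 -0.09, SE 0.0636, adjusted p = 0.246). The deep libraries of shD3 #1 had 90.2, 95.9 and 97.4 cpm against 118, 129 and 112 cpm (log2 -0.34, SE 0.0545, adjusted p = 6.79e-05). In both, every knockdown library lay below every control library. In shD3 #4 it was at 70.1, 77.2 and 74.6 cpm against 69.6, 66 and 64.5 cpm, above the controls by a log2 fold change of 0.16 (SE 0.0647, adjusted p = 0.0442). The most upstream RefSeq window of *CFLAR* (GRCh38.p14, chr2:201118466-201118765, plus strand) is shown because the siRNA effect on this gene differed from that of the shRNAs, as tested further on. Capitals mark the match to the NF-kB consensus, which 5.91% of promoter windows hold on either strand and which here overlaps a GC box (GGGCGG) by 2 bases. The other RefSeq windows of *CFLAR* do not hold this consensus, and a *FAS* window that is not shown does.
CFLAR: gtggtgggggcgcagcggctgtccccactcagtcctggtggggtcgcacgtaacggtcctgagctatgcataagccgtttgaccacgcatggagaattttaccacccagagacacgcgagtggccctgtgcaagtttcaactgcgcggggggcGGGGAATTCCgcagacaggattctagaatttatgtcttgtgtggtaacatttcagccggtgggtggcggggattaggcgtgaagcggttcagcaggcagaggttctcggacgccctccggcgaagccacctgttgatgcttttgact
The ratio of *CFLAR* to *CASP8* cpm was 1.54 to 1.8 in shD3 #1 against 2.04 to 2.17 in sh1Control, and 1.87 to 1.93 in deep shD3 #1 against 2.49 to 2.91. It was 2.25 to 2.38 in shD3 #4 against 1.98 to 2.17, and 2.8 to 3.26 in siD3 #3 against 2.09 to 2.2. The ratio was thus lower than in the controls in the libraries of shD3 #1 and higher in those of shD3 #4 and siD3 #3.

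*CFLAR-AS1*, an antisense lncRNA within the *CFLAR* locus, shares 140 bases (0.958%) with the canonical *CFLAR* exons. In shD3 #1 it rose from 0.632 ± 0.168 to 3.27 ± 0.331 cpm (mean ± SD, n = 3, log2 2.37). It passed the filter on low counts there only through the knockdown libraries, so no p is read from this value. *CFLAR-AS1* also rose in deep shD3 #1, where the controls passed the filter too (log2 0.84, adjusted p = 0.00097, edgeR). Neither shD3 #4 (log2 -0.58, adjusted p = 0.33) nor siD3 #3 (log2 0.42, adjusted p = 0.309) gave a call for it.

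Over the 3 knockdowns of the first libraries, tested as an average in 1 model of 17 libraries, 3 of the 9 genes other than *TNFRSF10C* were called higher, against 10.3% of all tested genes, and 0 lower, against 6.96%. They were *FAS* (log2 1.40, SE 0.0521, adjusted p = 9.7e-15), *TNFRSF10D* (log2 0.77, SE 0.051, adjusted p = 6.07e-11) and *TNFRSF10B* (log2 0.71, SE 0.0472, adjusted p = 6.32e-11), by edgeR. *TNFRSF10A* had 0.46 (adjusted p = 2.81e-07), *CFLAR* 0.30 (adjusted p = 4.16e-06) and *TNFRSF1A* -0.30 (adjusted p = 2.93e-05), all under the fold threshold. The average covers knockdowns that differed from each other, as tested next.

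The effect of shD3 #1 differed from that of shD3 #4, at an adjusted p below 0.05 with no fold threshold, for 6 of the 9 genes other than *TNFRSF10C*, against 39.4% of all tested genes. It was greater in shD3 #1 for *FAS* (difference of log2 fold changes 1.43, adjusted p = 1.93e-08, edgeR), *TNFRSF10D* (1.09, adjusted p = 4.8e-07), *TNFRSF10A* (0.98, adjusted p = 3.06e-06), *FADD* (0.74, adjusted p = 2.36e-05) and *TNFRSF10B* (0.44, adjusted p = 0.00334), and lower for *CFLAR* (-0.26, adjusted p = 0.0446). The *CFLAR* difference did not pass in 12 of 17 fits with 1 library removed. For *TNFRSF10C*, which passed the filter only through knockdown libraries, the difference was 2.52 (adjusted p = 0.0284, or 0.0213 with no filter beyond 1 count), and it did not pass without sh1Control replicate 2 (2.02, adjusted p = 0.0633), sh1Control replicate 3 (2.39, adjusted p = 0.0607), sh4Control replicate 3 (2.39, adjusted p = 0.0683) or shD3 #4 replicate 3 (2.10, adjusted p = 0.0564). Differences for *TNFRSF1A* (-0.28, adjusted p = 0.0577), *TNFSF10* (-1.37, adjusted p = 0.0586) and *CASP8* (0.25, adjusted p = 0.0786) did not pass. Without siD3 #3 replicate 3, which shares only the estimate of spread with this contrast, those of *TNFRSF1A* (-0.28, adjusted p = 0.0275) and *TNFSF10* (-1.37, adjusted p = 0.000171) did. *THUMPD3* was at 19.1 to 20.2 cpm in shD3 #4 and at 29.6 to 31.7 cpm in shD3 #1, and its part in these differences was not tested.

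The effect of siD3 #3 differed from the mean effect of the shRNAs for 5 of the 9 genes other than *TNFRSF10C*, against 29.1% of all tested genes. It was greater for *FAS* (1.69, adjusted p = 3.65e-10, edgeR), *CFLAR* (0.84, adjusted p = 5.85e-07), *TNFRSF10B* (0.59, adjusted p = 0.000174) and *TNFRSF10D* (0.59, adjusted p = 0.000384), and lower for *TNFRSF1A* (-0.31, adjusted p = 0.035). The *TNFRSF1A* difference did not pass in 10 of 17 fits with 1 library removed, with -0.34 (adjusted p = 0.0711) without siControl replicate 1. The difference was 0.20 for *TNFRSF10A* (adjusted p = 0.219), 1.14 for *TNFRSF10C* (adjusted p = 0.379), 0.36 for *TNFSF10* (adjusted p = 0.679), -0.12 for *FADD* (adjusted p = 0.435) and 0.24 for *CASP8* (adjusted p = 0.0852). Without siD3 #3 replicate 3 the *TNFSF10* difference was 0.86 (adjusted p = 0.0171), the *TNFRSF1A* difference -0.39 (adjusted p = 0.00441) and the *TNFRSF10A* difference 0.09 (adjusted p = 0.567), while the latter was 0.39 (adjusted p = 0.0252) without siControl replicate 1. For *FAS*, *CFLAR*, *TNFRSF10B* and *TNFRSF10D* the differences without siD3 #3 replicate 3 were 1.69, 0.75, 0.49 and 0.46, each with an adjusted p below 0.05.

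**Figure D4:**
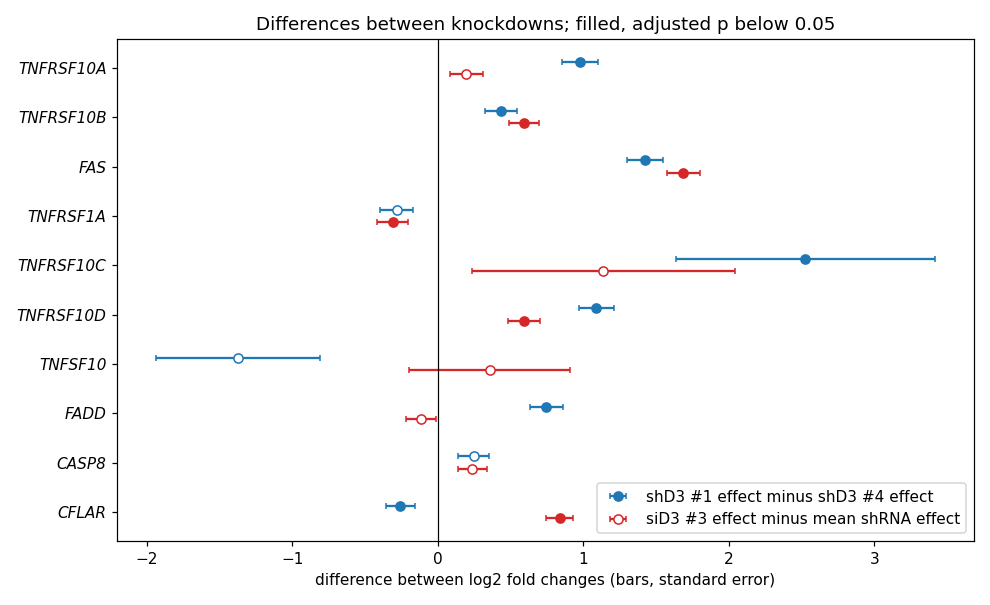
Differences between log2 fold changes (horizontal axis, with standard errors as bars) for the 10 genes (rows), for shD3 #1 minus shD3 #4 and for siD3 #3 minus the mean of the shRNAs; filled points have an adjusted p below 0.05. *FAS* is the gene farthest from 0 with a narrow error in both, at 1.43 and 1.69, while *TNFRSF10C* and *TNFSF10* have wide errors.

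Genes elsewhere in the pathway were followed as 74 genes in 8 lists, of which 62 to 67 were tested per comparison. In shD3 #1, 14 were called higher and 5 lower, in shD3 #4 4 and 2, in siD3 #3 18 and 2, and in deep shD3 #1 15 and 5. These counts include genes that passed the filter on low counts through 1 group only, as given below. The shares of all tested genes called higher and lower were 14.5% and 14.6% in shD3 #1, 8% and 4.49% in shD3 #4, 12.5% and 9.42% in siD3 #3, and 15% and 14.1% in deep shD3 #1, and every list count that follows is to be read against them. The median log2 fold changes of those tested were 0.03, -0.04, 0.20 and -0.0009 in the same order. The 6 called in shD3 #4 were *EDAR*, *TNFSF15*, *CASP9* and *TP63*, higher, and *TNFRSF12A* and *BIRC5*, lower. Those called lower elsewhere were *RIPK1*, *TRAF1*, *OTULIN*, *BCL2* and *BIRC5* in shD3 #1, *BCL2* and *BIRC5* in siD3 #3, and *NGFR*, *EDAR*, *BCL2*, *TP73* and *ATF4* in deep shD3 #1, and such lists were named after their values were seen. Among the other receptors of the family, 4 of 4 tested were called higher in shD3 #1, 1 higher and 1 lower of 4 in shD3 #4, 2 higher of 4 in siD3 #3, and 3 higher and 2 lower of 7 in deep shD3 #1. With 4 genes tested these counts are small, and *TNFRSF11B*, tested in shD3 #1 but neither in shD3 #4 nor in siD3 #3, is one of the 4 and passed the filter on low counts through its knockdown libraries. *TNFRSF12A* (Fn14, the TWEAK receptor) fell in shD3 #4 (log2 -0.90, adjusted p = 4.54e-10, edgeR) and rose in shD3 #1 (log2 1.32, adjusted p = 7.36e-11). *EDAR*, the ectodysplasin receptor, rose in shD3 #4 (log2 1.90, adjusted p = 2.85e-06). In deep shD3 #1 *EDAR* had 3 counts in each library against 12 to 21 (log2 -1.71). *NGFR*, the low-affinity neurotrophin receptor, had 56 to 79 counts in siD3 #3 against 2 to 4 (log2 4.20). In deep shD3 #1 *NGFR* had 5 to 7 counts against 24 to 32 (log2 -1.39). *NGFR* passed the filter on low counts through the knockdown in siD3 #3. In the deep libraries both genes passed it through the controls, so no p is read from these 3 values.

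Of 7 other ligand genes only 2 were tested in each comparison, and *FASLG* and *TNF*, the ligands of Fas and TNFR1, were too low to be tested in any of them. *TNFSF15*, the ligand TL1A, rose in shD3 #1 (log2 2.46, adjusted p = 1.15e-12, edgeR), shD3 #4 (log2 1.08, adjusted p = 1.26e-08) and deep shD3 #1 (log2 4.27, adjusted p = 3.73e-13). In siD3 #3 *TNFSF15* was not called (log2 0.96, SE 0.603, adjusted p = 0.257, edgeR). The groups overlapped there, at 8.8 to 41.9 cpm against 9.8 to 20.7 cpm. Of the 15 genes of TNFR1 signalling, 1 was called higher and 3 lower in shD3 #1, 0 in shD3 #4, 3 higher in siD3 #3 and 1 higher in deep shD3 #1. *TNFAIP3* (A20, a brake on NF-kB signalling), also named after its values were seen, rose in shD3 #1 (log2 1.19, adjusted p = 1.02e-06), siD3 #3 (log2 2.58, adjusted p = 0.00247) and deep shD3 #1 (log2 0.82, adjusted p = 4.66e-06). Of the 6 other caspases, 0 were called in shD3 #1 and deep shD3 #1, *CASP9* alone was called higher in shD3 #4 (log2 0.66, adjusted p = 8.74e-06) and *CASP10* alone in siD3 #3 (log2 0.77, adjusted p = 0.00845). Of the 2 necroptosis genes, *RIPK3* was too low to be tested and *MLKL* was not called.

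The BCL2 family and mitochondrial genes held 5 higher and 1 lower of 15 tested in shD3 #1, 0 of 15 in shD3 #4, 6 higher and 1 lower of 16 in siD3 #3, and 5 higher and 1 lower of 16 in deep shD3 #1. *BIK*, 1 of the 6 in siD3 #3, had 31 to 45 counts there against 1 to 9 in siControl (log2 2.6). *BIK* passed the filter on low counts through the knockdown in siD3 #3, so no p is read from it. It was not tested in shD3 #1 or shD3 #4. *BCL2*, which restrains the mitochondrial route, fell in shD3 #1 (log2 -1.64, adjusted p = 1.62e-07, edgeR), siD3 #3 (log2 -0.84, adjusted p = 0.00771) and deep shD3 #1 (log2 -1.07, adjusted p = 7.78e-06). The genes of the BH3-only proteins PUMA and NOXA, named after their values were seen, rose: *BBC3* had log2 fold changes of 1.38, 2.34 and 0.92 in these comparisons, and *PMAIP1* had 1.57, 1.21 and 1.21. In shD3 #4 *BBC3* had 0.14 and *PMAIP1* -0.28, and neither was called. Other genes of this list did not all go the same way. In shD3 #1, siD3 #3 and deep shD3 #1, *BCL2L11* had -0.36, 0.05 and -0.52, and *BAX* had 0.50, 0.65 and -0.51. *BCL2L1* had 0.50, 0.50 and 0.38 there. Among 6 inhibitor genes, *BIRC5* (survivin) was the only gene of the 74 called in the same direction in all 3 first knockdowns, and it fell in each (log2 -0.65 in shD3 #1, -0.69 in shD3 #4 and -3.58 in siD3 #3). In deep shD3 #1 *BIRC5* had -0.46 (adjusted p = 3.06e-05, edgeR), under the fold threshold, and was not called. *PEA15*, which binds FADD and caspase-8 and was named after its values were seen, rose in shD3 #1 (log2 1.80, adjusted p = 3.56e-11) and siD3 #3 (log2 0.75, adjusted p = 0.000926), and had a log2 fold change of -0.46 (adjusted p = 8.72e-05) in shD3 #4, under the fold threshold. Of the 14 transcription regulators, 2 were called higher in shD3 #1, 1 in shD3 #4 and 5 in siD3 #3, with 4 higher and 2 lower in deep shD3 #1, where *TP73*, a transcription factor gene, had the lowest value (log2 -1.90). *TP73* had 5, 2 and 2 counts there against 22, 25 and 13. It passed the filter on low counts through its controls, so no p is read from it.

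**Figure D5:**
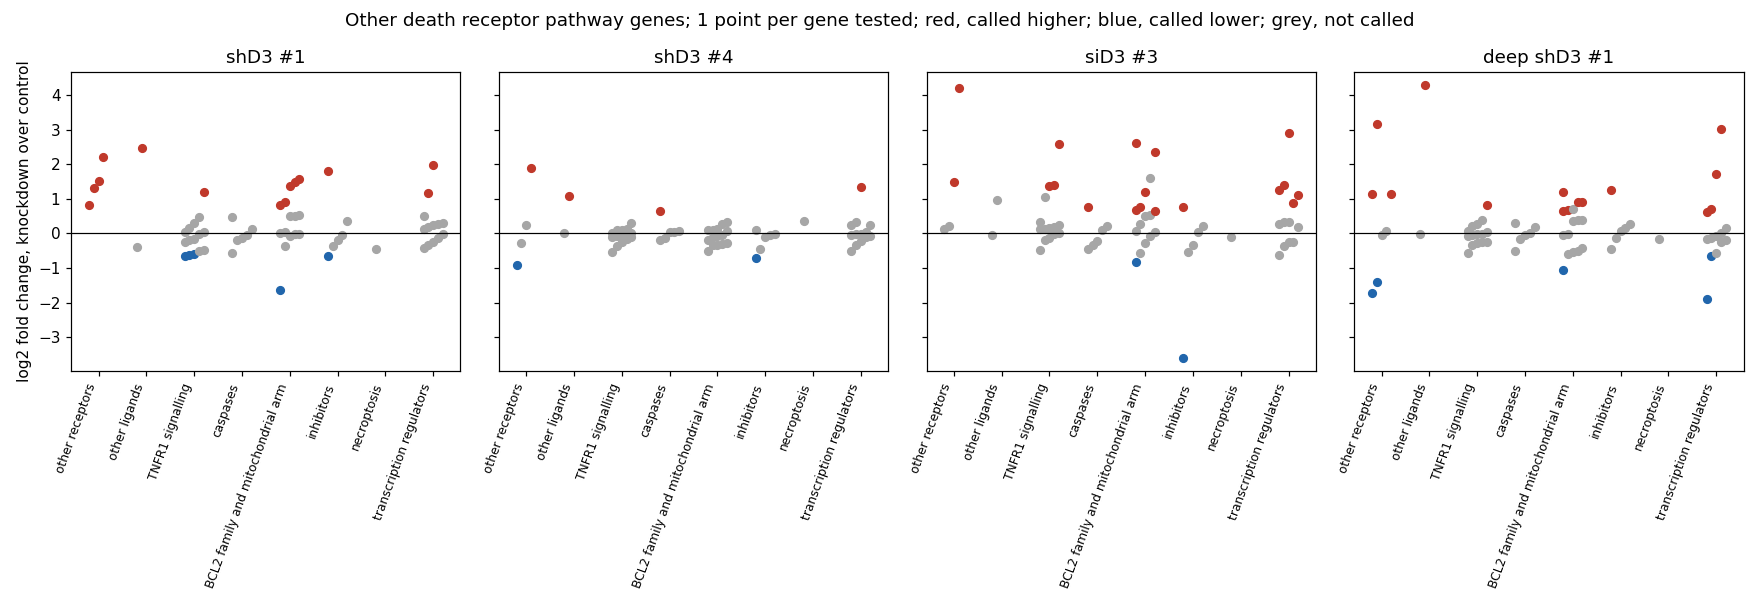
Log2 fold changes (vertical axis) of the tested genes of 8 pathway lists (horizontal axes) in each of 4 comparisons; each point is 1 gene, red where called higher, blue where called lower and grey where not called. The shD3 #4 panel holds 4 red and 2 blue points, and the siD3 #3 panel 18 red and 2 blue.

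Across the 17 first libraries, the level of *FAS* (log2 cpm) went with that of *TNFRSF10B* at Pearson r = 0.978, of *TNFRSF10D* at r = 0.961 and of *TNFRSF10A* at r = 0.871, and opposite to *TNFRSF1A* at r = -0.886. *TNFSF10* had r between -0.376 and 0.0327 with every receptor. Of 18662 genes compared, the 3 most like *FAS* were *CDKN1A* (r = 0.994), *RRM2B* (r = 0.986) and *TIGAR* (r = 0.986). Those most like *TNFRSF10A* were *SERPINE2* (r = 0.982), *PMAIP1* (r = 0.978) and *BLZF1* (r = 0.978), and those most like *TNFRSF10B* were *MIR22HG* (r = 0.989), *PLEKHM1* (r = 0.983) and *ITGAX* (r = 0.981). *TNFRSF1A* was most like *HCCS-DT* (r = 0.956), *TIMELESS* (r = 0.951) and *PDIA4* (r = 0.951). These correlations are descriptions: the libraries fall into 6 groups, so points within a group share their treatment, and the siD3 #3 and shD3 #1 libraries hold the highest *FAS* levels.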

How the data were processed

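RNA-seq was performed on rRNA-depleted total RNA with a directional kit. Per the submitters' processing notes and the methods, the authors trimmed reads with Trimmomatic 0.40, aligned them to GRCh38.p14 with STAR 2.7.10a and counted reads per gene. Both deposited tables hold counts, as whole numbers that had been neither normalised nor filtered, and 0 columns were left out. The methods name a RefSeq annotation, but the first table lists Ensembl identifiers, and the strand counted is not given in the sources used here.

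The quasi-likelihood test of edgeR 4.0.16, run in R 4.3.3 after filterByExpr and TMM scaling, set each knockdown against its controls, with Benjamini-Hochberg adjustment over all tested genes. The average and the differences came from 1 model of 17 libraries. Standard errors are the size of the log2 fold change over the square root of F. DESeq2 1.42.0 and other filters, thresholds and sets of libraries were alternatives. The scripts were tested on simulated data. Libraries are called biological replicates in the labels, without saying whether cultures were separate, so p-values measure the spread between these libraries. No replicates agreed within sampling noise (chi-square per degree of freedom 1.82 to 34.6). The 10 genes and the lists (other receptors, other ligands, TNFR1 signalling, caspases, BCL2 family, inhibitors, necroptosis, transcription regulators, antisense RNAs, cell type markers) were chosen with earlier results of these data known. Named genes were the 10 genes, *THUMPD3*, *FAS-AS1*, *CFLAR-AS1* and *TNFRSF10A-DT*, pathway genes called in the same direction in all 3 first knockdowns, the highest and lowest pathway value of each comparison, and the 3 genes most like *TNFRSF10A*, *TNFRSF10B*, *FAS* and *TNFRSF1A* by Pearson r of log2 (cpm + 1). Positions came from GENCODE 44, and promoter sequences from RefSeq, which matched 6 of the 10 genes, with *TNFRSF10A*, *TNFRSF10B*, *TNFRSF10C* and *TNFRSF10D* unmatched. Motifs were searched on both strands. Besides those of the report, the GC box was held by 45% of windows and the TATA box (TATAAA) by 11.5%. The values of 1 transcription regulator and of its motif are not reported here. Figures were drawn with Python 3.11.15 and matplotlib 3.10.9.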

Additional observations from a re-analysis of the deposited data

Results flagged for a closer look

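The effects of different knockdowns on the same gene differed by a test of the difference itself for 12 values, with that of *TNFRSF10C* to be read apart. Between shD3 #1 and shD3 #4, the difference of log2 fold changes was 1.43 for *FAS*, 1.09 for *TNFRSF10D*, 0.98 for *TNFRSF10A*, 0.74 for *FADD*, 0.44 for *TNFRSF10B*, 2.52 for *TNFRSF10C* and -0.26 for *CFLAR*. For *FADD* the signs were opposite, with every shD3 #1 library above and every shD3 #4 library below its controls. Between siD3 #3 and the mean of the shRNAs, the difference was 1.69 for *FAS*, 0.84 for *CFLAR*, 0.59 for *TNFRSF10B*, 0.59 for *TNFRSF10D* and -0.31 for *TNFRSF1A*. Between the siRNA and the shRNAs, delivery, harvest day and controls differ along with the reagent, and between the shRNAs the controls differ along with it, and these cannot be told apart. The *TNFRSF10C* value rests on 36 and 7 counts in shD3 #1 and 14 and 13 counts in shD3 #4. This gene passed the filter on low counts only through knockdown libraries in which it was high, so its test is not read as a result.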

How the results depend on the processing

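Of 1175 recomputed values of single genes, 1106 kept their direction and their side of the threshold, 47 kept only the direction, 18 came past the threshold and 4 changed sign, each of these 4 with 1 library left out. Left out 1 at a time, libraries moved *TNFRSF1A* in shD3 #4 from -0.0849 to 0.0252, *CASP8* in shD3 #4 from -0.0319 to 0.0047, and the siRNA minus shRNA difference from -0.0021 to 0.389 for *TNFRSF10A* and from -0.0297 to 0.86 for *TNFSF10*. With a log2 threshold of 1, the genes called, *TNFRSF10C* included, numbered 3 in shD3 #1, 0 in shD3 #4, 4 in siD3 #3 and 2 in deep shD3 #1, and with glmTreat 5, 0, 5 and 2. They are thus not to be set against the counts of 9 genes above, and shares of all tested genes were not computed for these settings. In 1 fit of all 17 first libraries 0 genes were called in shD3 #4. *TNFRSF10C* included, libraries left out 1 at a time gave 5 called genes in shD3 #1, 1 in shD3 #4, 4 to 6 in siD3 #3, 4 in deep shD3 #1, 4 on average, 5 to 9 differing between the shRNAs and 4 to 6 between siRNA and shRNAs. The *CFLAR* difference between shRNAs was lost in 12 of 17 such fits, with DESeq2 (adjusted p = 0.0815) and with no filter (adjusted p = 0.136), and the *TNFRSF1A* siRNA difference in 10 of 17. The causes were not tested.

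Replicate numbers did not pair the samples: correlations of same-numbered libraries' deviations were -0.108 to 0.142. With the replicate block and *TNFRSF10C* included, 5, 1, 6 and 4 genes were called in shD3 #1, shD3 #4, siD3 #3 and deep shD3 #1, 9 differed between the shRNAs and 6 between siRNA and shRNAs. Under it, *TNFRSF10A* in siD3 #3 was 0.51 and not called, and *TNFSF10* was 1.12 (adjusted p = 0.00647). Differences gained under it were those of *TNFRSF1A* (-0.29) and *TNFSF10* (-1.38) between the shRNAs and of *TNFSF10* (0.88) between siRNA and shRNAs.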
